A study of Mus musculus with 6 samples.

Results

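The genes described here are the TGF-beta ligands Tgfb1, Tgfb2 and Tgfb3, the receptors Tgfbr1, Tgfbr2 and Tgfbr3, the activin beta subunits Inhba and Inhbb, and the latent TGF-beta binding proteins Ltbp1 and Ltbp3. They were found in the table by gene name, as a set proposed with earlier results of these data in view. All 10 names matched 1 gene each among the 24191 genes of the deposited table, and all 10 passed the filter of a mean of at least 1 scaled read.

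PolyA RNA was sequenced from mouse embryonic stem cells of the J1 line, which derive from the inner cell mass of the blastocyst and can form all embryonic lineages. One group held 3 wild-type (WT) libraries and the other 3 libraries of cells with the genotype Mettl5 -/- (knockout), which lack an enzyme that methylates an adenosine of 18S ribosomal RNA. Both groups were kept for 7 days in serum with LIF, the cytokine that holds these cells undifferentiated. The labels say neither whether the knockout is 1 clone nor whether libraries came from separate cultures, so p-values reflect library-to-library spread that could be technical.

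TGF-beta ligands are secreted as latent dimers, each wrapped in its own propeptide, and latent TGF-beta binding proteins tether these complexes to the matrix until integrins, thrombospondin or proteases release the ligand. The free ligand binds the type II receptor TGFBR2, which phosphorylates the type I receptor TGFBR1, and the active pair phosphorylates SMAD2 and SMAD3. Activins are dimers of inhibin beta subunits, and reach the same SMADs through ACVR2A or ACVR2B and ACVR1B. In early embryos and stem cells the activin and NODAL branch is best known for primed pluripotency and for mesoderm and endoderm formation.

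Levels are given on the TPM scale, which is corrected for gene length, so that genes can be compared with each other. Fold changes are knockout against WT on the log2(scaled reads + 1) scale from limma, with a standard error (SE) and a p-value adjusted over all 24183 genes tested, and the threshold was 0.05. Estimated depth was 38540000 to 59640000 fragments per library. Mettl5 ranged over TPM-scale levels of 48.6 to 50.3 for WT and 3.32 to 3.65 for the knockout. All 8 stem cell markers examined reached a TPM-scale level of 1 in both groups, with sums of 4697 to 5113 for WT and 4463 to 4912 for the knockout, where 2 were called higher and 5 lower. Pou5f1 and Dppa5a carried most of these sums. On the log2 scale Zfp42 fell by 1.24, Klf4 by 1.05, Esrrb by 0.88, Sox2 by 0.58 and Pou5f1 by 0.09. Dppa5a rose by 0.31 and Sall4 by 0.47, and Nanog did not pass the threshold.

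Of the 10 genes, 9 were higher and 1 was lower in the knockout. The largest changes lay in Tgfb2 and Inhba, which were barely detected in WT cells, while Inhbb, the most abundant of the 10 in WT by its mean, was the 1 that fell. The background was broad: 33.6% of all tested genes were called higher and 28.9% lower, 62.6% in all. At a log2 change of 1 or more, 6 of the 10 were higher and 1 lower, against 11.4% and 9.93% of all tested genes, a comparison that is no independent evidence for a set chosen in that way. The groups did not overlap on the TPM scale for 9 of the 10 genes, as was so for 68.1% of all tested genes. The median log2 fold change was 1.61 over the 10 genes and 0.00 over all tested genes, and the median absolute change was 1.65 and 0.46. In bulk RNA, more cells with a transcript and more RNA of it per cell cannot be told apart. The plot of levels per library shows every value.

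**Figure D1:**
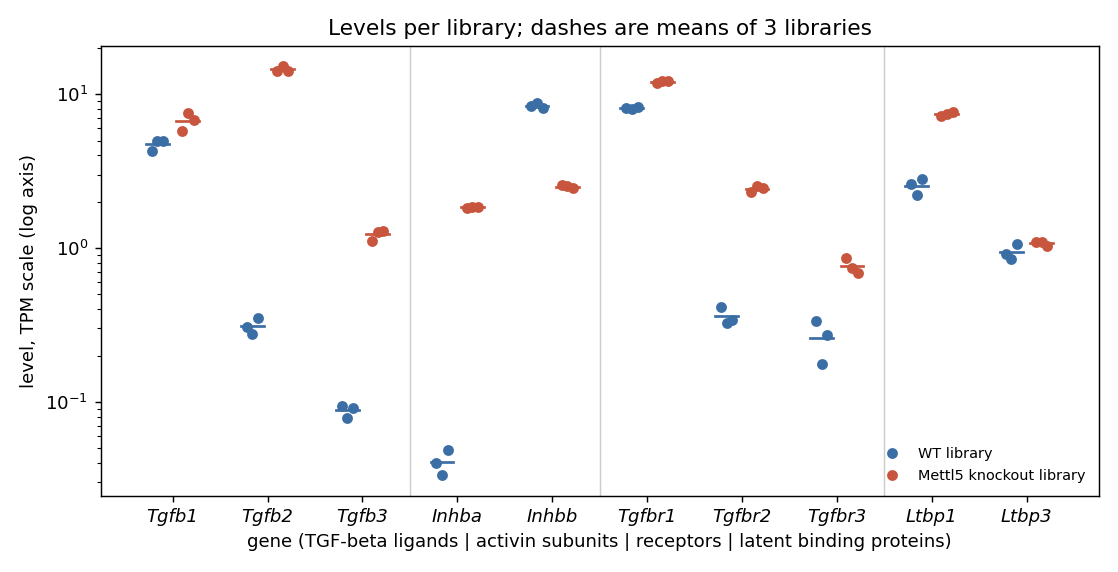
Level of each gene on the TPM scale (log axis) in the 3 WT libraries (blue) and the 3 Mettl5 knockout libraries (red), with a dash at each group mean. Tgfb2 and Inhba rise from 0.312 and 0.0407 to 14.5 and 1.84, Inhbb falls from 8.40 to 2.51, and only Ltbp3 has overlapping groups.

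The 3 TGF-beta ligands all rose, by very different amounts, and the ligand with the highest level changed from Tgfb1 to Tgfb2. Tgfb2, the ligand that needs the co-receptor TGFBR3 for efficient binding, lies on mm10 chromosome 1, 186622792 to 186705989 (ENSMUSG00000039239). Its TPM-scale levels in replicates 1, 2 and 3 were 0.308, 0.275 and 0.353 for WT, then 14.3, 15.2 and 14.1 for the knockout. Every knockout library was far above every WT library, and the ratio of mean levels was 46.6. limma gave a log2 fold change of 5.50 (SE 0.128, limma adjusted p 1.12e-09), and 0.116% of tested genes had a change at least as high. The WT level rested on few reads, an estimated 10.8 to 13.4 fragments per library against 449.5 to 702.3 in the knockout.

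Tgfb3, best known from palate and lung development, followed the same direction at a lower level. It lies on chromosome 12, 86056745 to 86079041 (ENSMUSG00000021253), and its 3′ end overlaps Ttll5 on the other strand. TPM-scale levels of Tgfb3 were 0.0942, 0.0788 and 0.0912 for WT, then 1.12, 1.27 and 1.29 for the knockout. The groups were well separated, with a log2 fold change of 3.77 (SE 0.140, limma adjusted p 2.23e-08). On the TPM column, with a pseudocount of 0.1, the change was 2.82. Ttll5, a tubulin glutamylase gene, was at 6.09 ± 0.201 in WT and 7.29 ± 0.535 with Mettl5 lost (TPM scale, SD, n = 3), and since the strand setting of the counting is not given, its part in the Tgfb3 values was not tested.

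Tgfb1, the most widely studied ligand and a regulator of growth and immunity, changed least of the 3. It lies on chromosome 7, 25687002 to 25705077 (ENSMUSG00000002603). Its TPM-scale levels were 4.27, 4.94 and 4.95 for WT, then 5.74, 7.53 and 6.81 for the knockout. The groups did not overlap, but the knockout libraries were uneven, with a log2 fold change of 0.57 (SE 0.119, limma adjusted p 0.00224). Tested against a change of 1.5-fold, Tgfb1 no longer passed.

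Promoter sequences of Tgfb2 and Inhba, the 2 largest rises, are shown with those of Tgfb1, the smallest rise among the ligands, and Inhbb, the fall, because the 4 ligand genes moved so differently. Each is the 250 bases before the start of transcription, 5′ to 3′ on the gene's strand, from RefSeq on GRCm38.p6, the assembly also called mm10. Capitals mark matches to a TATA box (TATAAA), an E-box (CACGTG) or a GC box (GGGCGG), on either strand.
Tgfb2, chr1:186705990-186706239, minus strand: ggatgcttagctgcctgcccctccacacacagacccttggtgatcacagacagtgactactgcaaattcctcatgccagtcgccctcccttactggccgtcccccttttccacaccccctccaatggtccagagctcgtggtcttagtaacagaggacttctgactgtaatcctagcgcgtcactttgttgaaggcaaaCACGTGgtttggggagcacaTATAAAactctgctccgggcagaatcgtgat
Inhba, chr13:16011601-16011850, plus strand: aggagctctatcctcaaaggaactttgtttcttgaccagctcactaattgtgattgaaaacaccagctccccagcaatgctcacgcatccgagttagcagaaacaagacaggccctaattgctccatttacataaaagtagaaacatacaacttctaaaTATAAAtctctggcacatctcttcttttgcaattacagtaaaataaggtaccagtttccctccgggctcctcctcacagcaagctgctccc
Tgfb1, chr7:25686752-25687001, plus strand: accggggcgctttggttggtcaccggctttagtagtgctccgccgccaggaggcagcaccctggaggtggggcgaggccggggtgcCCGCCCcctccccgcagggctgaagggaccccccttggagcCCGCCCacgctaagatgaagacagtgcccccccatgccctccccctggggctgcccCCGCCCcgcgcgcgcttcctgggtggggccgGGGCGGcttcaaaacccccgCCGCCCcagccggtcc
Inhbb, chr1:119422249-119422498, minus strand: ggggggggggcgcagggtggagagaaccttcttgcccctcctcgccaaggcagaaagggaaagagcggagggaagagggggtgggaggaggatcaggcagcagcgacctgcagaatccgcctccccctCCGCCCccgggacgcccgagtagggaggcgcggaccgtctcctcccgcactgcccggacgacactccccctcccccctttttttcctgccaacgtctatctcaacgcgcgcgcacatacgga

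The 4 windows differed in base composition. Those of Tgfb2 and Inhba held 53.6% and 43.2% G and C, and those of Tgfb1 and Inhbb 75.2% and 68.0%. The median was 52.4% over 32851 RefSeq promoter windows of the same length. These 4 were picked by their change, and the remaining windows did not follow a plain split. Ltbp3, which hardly moved, held 47.2%, Tgfbr2 58.4%, Ltbp1 56.8% and 50.8%, and Tgfbr1 74.8% and 52.8%. A link of base composition with change was not tested. Tgfb2 had TATAAA from base -31 to -26 and CACGTG from -51 to -46, counted back from the start of transcription, and Inhba had TATAAA from -91 to -86. Tgfb1 had 5 GC boxes and Inhbb 1. TATAAA was found in 12.4% of all windows, CACGTG in 6.02% and GGGCGG in 32.7%. Entries existed for 8 of the 10 genes, all but Tgfb3 and Tgfbr3, in 10 windows. Also searched on both strands were the AP-1 motif TGANTCA (6.75% of all windows), the cyclic AMP response element TGACGTCA (1.55%), the TEAD motif GGAATG (12.6%) and the palindromic SMAD element GTCTAGAC (0.167%). Of these, only TGACGTCA occurred in any of the 10 windows, in Ltbp1 from -73 to -66. A match describes these letters only, and none of the motifs overlapped another in the windows shown.

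The 2 activin beta subunits went opposite ways. Inhba, the beta A subunit that forms activin A, lies on chromosome 13, 16011851 to 16031621 (ENSMUSG00000041324). The libraries had TPM-scale levels of 0.0399, 0.0334 and 0.0488 for WT, then 1.83, 1.84 and 1.84 for the knockout. The 3 knockout libraries were nearly equal and all far above WT, with a ratio of mean levels of 45.1 and a log2 fold change of 5.41 (SE 0.156, limma adjusted p 4.42e-09). WT libraries held an estimated 7.49 to 9.98 fragments of Inhba and knockout libraries 325.3 to 478.4, and the size of the change moved with the pseudocount. It was 4.93 with a pseudocount of 5 scaled reads and 3.78 on the TPM column with a pseudocount of 0.1.

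Inhbb, the beta B subunit that forms activin B, lies on chromosome 1, 119415465 to 119422248 (ENSMUSG00000037035). On the TPM scale its levels were 8.39, 8.72 and 8.08 for WT, then 2.56, 2.51 and 2.45 for the knockout. All WT libraries were above all knockout libraries, with a log2 fold change of -1.69 (SE 0.0433, limma adjusted p 2e-09), and 3.74% of tested genes had a change at least as low. Inha, the alpha subunit that pairs with either beta subunit to form inhibins, had mean TPM-scale levels of 0.497 ± 0.0944 for WT and 0.391 ± 0.026 for the knockout (SD, n = 3). Its log2 difference, -0.27, missed the threshold (limma adjusted p 0.26).

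All 3 receptor genes rose, the type II receptor more than the type I receptor. Tgfbr2, whose product binds the ligand first, lies on chromosome 9, 116084293 to 116175360 (ENSMUSG00000032440). Per library, its TPM-scale level was 0.417, 0.326 and 0.340 for WT, then 2.32, 2.52 and 2.46 for the knockout. The groups were well separated, with a log2 fold change of 2.80 (SE 0.0951, limma adjusted p 1.22e-08). Tgfbr1, also called ALK5, lies on chromosome 4, 47353222 to 47414931 (ENSMUSG00000007613). Its TPM-scale levels were 8.11, 8.02 and 8.29 for WT, then 11.8, 12.1 and 12.2 for the knockout. That change was small and even, with a log2 fold change of 0.62 (SE 0.0388, limma adjusted p 7.3e-07), and it did not pass against a change of 1.5-fold (limma adjusted p 0.638).

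Tgfbr3, or betaglycan, presents TGF-beta 2 to the signalling receptors and binds inhibins. It lies on chromosome 5, 107106570 to 107289629 (ENSMUSG00000029287). The libraries had TPM-scale levels of 0.335, 0.176 and 0.273 for WT, then 0.858, 0.744 and 0.687 for the knockout. The WT libraries were uneven relative to their mean, and the groups did not overlap, with a log2 fold change of 1.605 (SE 0.232, limma adjusted p 0.000225). Tgfbr3 had the lowest mean of the 10 in the knockout. A processed pseudogene, Gm8145, lies within it on the other strand and was at 0.258 ± 0.0245 for WT and 0.0691 ± 0.068 for the knockout (TPM scale, SD, n = 3).

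Ltbp1 rose and Ltbp3 sat at the edge of the threshold. Ltbp1, which anchors latent TGF-beta to fibrillin and fibronectin in the matrix, lies on chromosome 17, 75005568 to 75392512 (ENSMUSG00000001870). On the TPM scale its levels were 2.59, 2.22 and 2.80 for WT, then 7.20, 7.49 and 7.66 for the knockout. All knockout libraries were above all WT libraries, with a log2 fold change of 1.61 (SE 0.0772, limma adjusted p 1.21e-07). Ltbp3, known from bone and tooth disorders, lies on chromosome 19, 5740904 to 5758532 (ENSMUSG00000024940). Per library, its TPM-scale level was 0.921, 0.846 and 1.06 for WT, then 1.09, 1.09 and 1.04 for the knockout, so the groups overlapped. Its log2 fold change of 0.24 (SE 0.0869) passed at a limma adjusted p of 0.036 and was lost in 8 of 15 alternatives. Without WT replicate 1 or 2 or any 1 knockout library the adjusted p was 0.0544 to 0.114, and with libraries rescaled to equal totals it was 0.412.

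**Figure D2:**
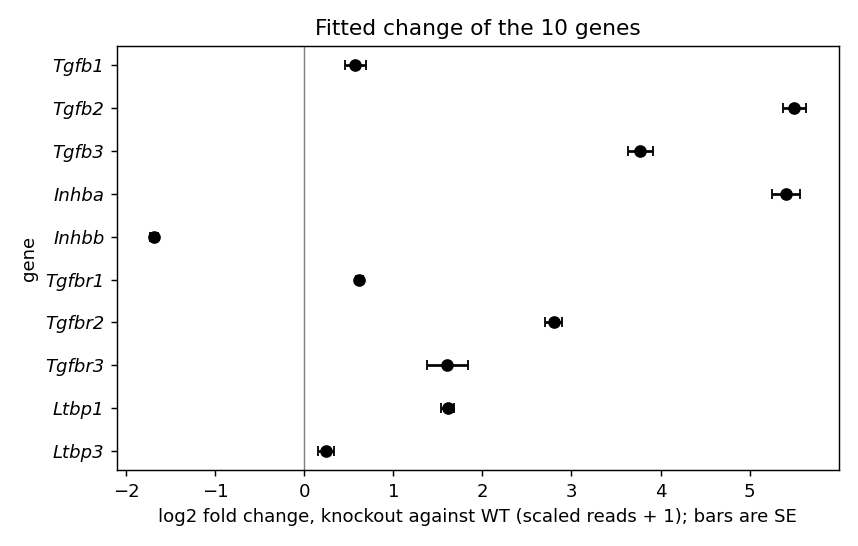
Log2 fold change of each gene, knockout against WT on the log2(scaled reads + 1) scale, with bars of 1 SE from limma over 3 libraries a group. Tgfb2 (5.50) and Inhba (5.41) lie farthest to the right, Inhbb (-1.69) is the single gene to the left of 0, and Ltbp3 (0.24) lies closest to 0.

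The order of levels changed with the genotype. In WT libraries Inhbb, Tgfbr1, Tgfb1 and Ltbp1 led, with means of 8.40, 8.14, 4.72 and 2.54 on the TPM scale. Inhbb and Tgfbr1 had overlapping ranges, as had Tgfbr2 with Tgfb2 and Tgfb2 with Tgfbr3, and the other neighbours in that order did not overlap. In knockout libraries Tgfb2, Tgfbr1, Ltbp1 and Tgfb1 led, with means of 14.5, 12.03, 7.45 and 6.70, and the neighbours with overlapping ranges were Ltbp1 with Tgfb1 and Inhbb with Tgfbr2. Summed over the 10 genes, TPM-scale levels were 25.5 to 26.3 for WT and 48.7 to 52.3 for the knockout.

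Within each class the make-up shifted, which the scaling of the libraries cannot alter because a share is taken within a library. Tgfb2 made up 6.596%, 5.18% and 6.54% of the summed TGF-beta ligand level for WT, then 67.5%, 63.3% and 63.6% for the knockout. Tgfb1 went from 92.2% ± 1.03 to 29.7% ± 2.25 of that sum (SD, n = 3), while the sum itself went from 5.12 ± 0.393 to 22.4 ± 1.44 on the TPM scale. Inhba made up 0.473%, 0.382% and 0.600% of the 2 activin subunits in WT and 41.7%, 42.3% and 42.9% in knockout libraries. Their sum went the other way, from 8.44 ± 0.314 to 4.34 ± 0.0481 (SD, n = 3). The loss of Inhbb was thus larger on this scale than the gain of Inhba.

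Tgfbr2 rose from 4.12% ± 0.508 to 16.0% ± 0.421 of the 3 receptors, and Tgfbr1 remained the largest part at 92.9% ± 1.30 and 79.0% ± 0.49 (SD, n = 3). Ltbp1 went from 72.9% ± 0.756 to 87.4% ± 0.619 of the 2 binding proteins (SD, n = 3). For each of the 10 shares the groups did not overlap, and the exact two-sided permutation p was 0.1, raw and adjusted over the 10, the smallest that 3 libraries against 3 can give. The stacked bars of class shares show every library.

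**Figure D3:**
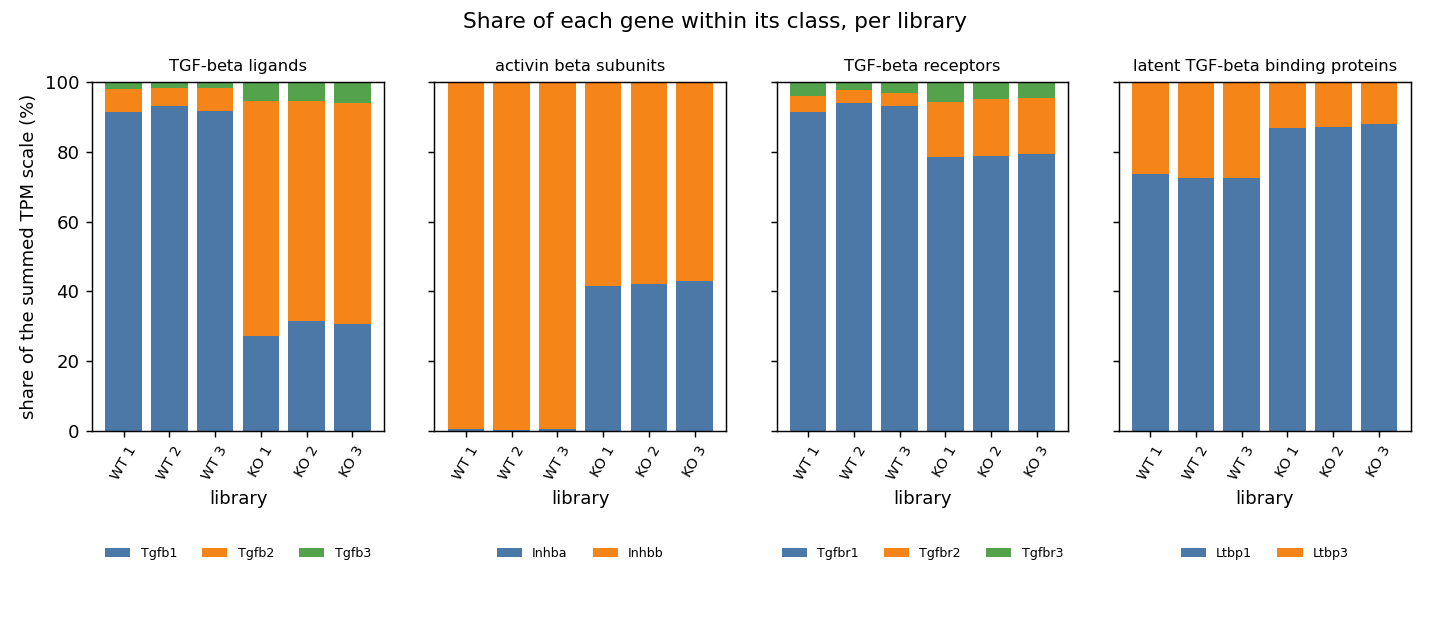
Share (%) of each gene in the summed TPM scale of its class, 1 bar per library (WT 1 to 3, knockout 1 to 3), for the TGF-beta ligands, the activin beta subunits, the TGF-beta receptors and the latent binding proteins. Tgfb2 makes up 5.18% to 6.596% of the ligand bar in WT and 63.3% to 67.5% in knockout libraries.

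Other genes of the pathway were read from 7 lists with 77 names, of which 76 were tested. Of these, 58 were higher and 8 lower, with a median log2 fold change of 0.82, beside 33.6%, 28.9% and 0.00 over all tested genes. The genes named from each list are the 4 with the highest mean level over the 6 libraries, a mean that includes the knockout libraries and so favours genes that are high there. By WT level alone Thbs1 (1.02) would stand behind Pcsk6 (7.45) and Mmp2 (7.12), and Acta2 (3.10) and Tagln (16.7) behind Skil (39.2) and Cdkn1a (22.8). Several list genes, such as Thbs1, Tagln and Acta2, were known from earlier work on these data to have risen, so the lists are no independent evidence of direction.

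Among 7 other receptors of the family, 3 rose, 1 fell and 3 did not pass, with a median of 0.03 that became -0.13 with equal totals. Acvr2b, a type II activin receptor, had TPM-scale means of 7.94 ± 0.554 for WT and 7.77 ± 0.558 for the knockout, and Acvr2a rose from 2.86 ± 0.137 to 4.56 ± 0.455 (SD, n = 3). Acvr1b, the type I activin receptor, had a log2 fold change of -0.27, and the endothelial co-receptor gene Eng one of 0.46. Of 7 genes listed as other activin-branch ligands, 2 rose, 4 fell and 1 did not pass (median -0.31). Nodal rose from 20.5 ± 0.282 to 41.3 ± 1.08 and Gdf3, a NODAL-like ligand, fell from 50.1 ± 2.52 to 38.9 ± 1.98 (SD, n = 3). Gdf1, a partner of NODAL, was at 3.69 and 3.57. The stress-induced Gdf15, a distant family member placed only loosely in this list, had a log2 fold change of -1.89. Gdf3 lies on chromosome 6 and Gdf1 and Gdf15 on chromosome 8, where the median change of all tested genes was -0.29 and -0.38. Such medians were taken only for chromosomes 6, 8 and 11, where list genes went both ways (Itgb1 on chromosome 8 rose by 0.99). The part of these chromosome-wide medians in the changes of single genes, fallen or risen, was not tested.

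Of 16 SMADs and their regulators, 13 were higher and 2 lower, with a median log2 fold change of 0.36. The effector gene Smad3 and Pmepa1, a feedback inhibitor, were the 2 that rose by more than 1 (1.43 and 1.39), and the inhibitory Smad6 rose by 0.99. The 2 that fell were Zfyve9 (-0.08, limma adjusted p 0.0469), a SMAD anchor, and the ubiquitin ligase gene Smurf2 (-0.28). Only 1 gene of this list was lower with a replicate block or with any 1 library left out. Smurf2 lies on chromosome 11, where the median change of all tested genes was -0.41, and the part of this in its change was not tested. With equal totals 10 were higher and 3 lower (median 0.21). The corepressor genes Tgif1 and Skil rose by 0.28 and 0.46, Trim33, a SMAD-binding ubiquitin ligase, by 0.30 and Foxh1, the SMAD2 partner in NODAL responses, by 0.46. Of 7 genes listed as antagonists, 5 were higher and none lower (median 2.42, the value of Fstl1). That count and direction held under both rescalings of the libraries. The place of Fstl1 among antagonists of this pathway is less settled than that of Fst. The TPM-scale level of Fst, encoding the activin-binding protein follistatin, rose from 0.820 ± 0.161 to 8.72 ± 0.201 and that of Fstl1 from 8.97 ± 0.0591 to 45.6 ± 1.01 (SD, n = 3). Bambi, a decoy receptor, rose by 0.63, and Fstl3, another activin-binding protein, missed the threshold at a log2 difference of 0.15.

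Genes of latency and activation had 16 of 19 higher and 1 lower (median 1.04). Thbs1, encoding thrombospondin 1, an activator of latent TGF-beta, went from a TPM-scale level of 1.02 ± 0.0285 to 63.5 ± 0.0767, and Mmp14, a membrane protease, from 7.37 ± 0.222 to 28.8 ± 0.39 (SD, n = 3). The integrin gene Itgb1 rose by 0.99 and Ltbp4 by 0.35. The TPM-scale level of Ltbp4 was 64.2 ± 3.85 for WT and 78.9 ± 1.35 for the knockout (SD, n = 3), above Ltbp1 and Ltbp3 in both. All 17 TGF-beta response genes were higher, with a median of 1.56. Tpm1, Tagln and Acta2, which encode tropomyosin 1, transgelin and smooth muscle actin, had log2 fold changes of 3.41, 5.52 and 6.29, and fibronectin (Fn1) one of 0.88. Of 10 activin and Nodal response genes, 9 were higher and none lower (median 0.94). Lefty1 and Lefty2, feedback inhibitors of NODAL, rose by 0.82 and 0.41. Skil, Smad7, Pmepa1 and Nodal stand in more than 1 list.

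**Figure D4:**
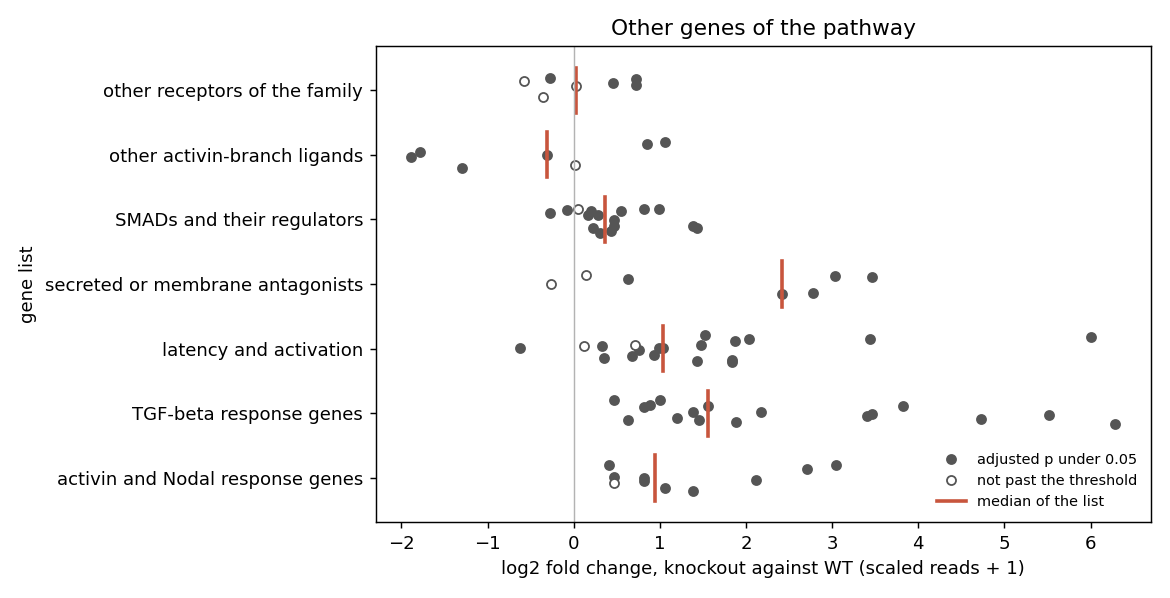
Log2 fold change of each gene of 7 pathway lists, knockout against WT on the log2(scaled reads + 1) scale, filled where the adjusted p is under 0.05 and open where it is not, with a bar at each list's median. The TGF-beta response genes all lie to the right of 0, with a median of 1.56, and the other receptors of the family centre on 0.03.

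Markers of other cell types moved with the same genotype. Of 14 fibroblast markers, which feeder cells would bring, 12 were higher and 2 lower (Pdgfra and Thy1), and their TPM-scale sum was 16.9 to 19.6 for WT and 40.9 to 42.2 for the knockout. Thy1 carried most of the WT sum, with a mean of 13.1 against 5.91 in the knockout, where Col1a1 was highest at 17.7. Of 7 trophoblast markers 6 were higher, with sums of 64.3 to 65.5 and 1523 to 1581, mostly Krt8 and Krt18, while Elf5 did not pass. Of 8 early mesoderm markers 6 were higher (sums of 3.48 to 3.97 and 66.8 to 73.8). Tbx6 was the 1 called lower, by 0.69 on the log2 scale, and Mesp1 (-0.70) did not pass. The knockout sum was mostly T (63.4 ± 3.86), followed by Eomes (4.14 ± 0.255) and Mixl1 (1.61 ± 0.0672; TPM scale, SD, n = 3). Eomes and Mixl1 also count among the activin and Nodal response genes, Col1a1 among the TGF-beta response genes and Dcn among the antagonists. Of 8 primitive and parietal endoderm markers 1 was higher and 6 were lower (sums of 69.1 to 75.0 and 45.4 to 48.0). The 1 higher, Col4a1, went from a mean of 26.2 to 31.7 and carried most of the knockout sum. Among the 6 lower, Lama1 went from 15.2 to 3.125 and Sox17 from 1.90 to 0.213. No marker in these lists was at 0 in all 6 libraries. The part of these cell types in the changes of the 10 genes was not tested.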

How the data were processed

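PolyA RNA of 3 WT and 3 Mettl5 knockout libraries of J1 mouse embryonic stem cells was analysed, grouped by sample title. Per the labels, RNA was fragmented to 100 nt and 0.1 µg entered stranded libraries. The submitters' processing notes name kallisto and sleuth as tools and mm10 as build, without versions, and neither the labels nor the table state the annotation or whether counting used strand. The table deposited by the authors holds 2 signal columns per gene. The first, headed scaled_reads_per_base and called scaled reads here, is not whole-numbered. Its header speaks of reads per base, but it was treated as library-scaled counts without correction for length. That reading is an inference from its values. Of values from 0.5 to 40, 29.7% to 32.8% lay within 0.02 of whole multiples of a step found per library, against a median of 3.31% to 3.53% over all steps tried. Dividing the library sum by that step gave the estimated depth. The second, named tpm per the file headers, sums to 969838 to 1022473 per library and is called the TPM scale here.

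The 10 genes and the pathway lists were chosen with earlier results of these data known. Gene names and coordinates came from GENCODE M21 on GRCm38 (23846 identifiers matched and 345 did not), with RefSeq synonyms for other symbols. limma 3.58.1 in R 4.3.3, with an intensity trend, was fitted to log2(scaled reads + 1), keeping the 24183 genes that averaged 1 scaled read or more, with genotype as the only term and Benjamini-Hochberg adjustment over all of them. Shares were compared with exact permutation tests in scipy 1.17.1. Named were the 10 genes, Mettl5, 4 genes per list by mean level, and 3 genes nearest to Tgfb1 and to Inhba. Further genes (Inha, Inhbc, Inhbe, Dcn, Bgn, Ttll5, Gm8145, Smad3, Smad6, Smad7, Pmepa1, Smurf2, Zfyve9, Pcsk6, Mmp2, Cdkn1a and markers) were named after their values were seen. Alternatives were 2 rescalings, 2 filters, 2 pseudocounts, the TPM column, a replicate block, leaving out each library and testing against a 1.5-fold change. Python 3.11.15, pandas 2.3.3, numpy 2.4.6 and matplotlib 3.10.9 were used.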

Additional observations from a re-analysis of the deposited data

How the results depend on the processing

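Over 15 alternatives each, the 10 genes kept their direction in all 150 fits and their side of the threshold in 140. The 10 exceptions were 8 of Ltbp3 and, under the test against a 1.5-fold change, Tgfb1 and Tgfbr1. That test called 2869 genes higher and 2178 lower in all, and 37 higher and 3 lower among the pathway list genes. Equal totals moved the median of all genes to -0.15 and of the 10 genes to 1.45, with 6309 genes higher and 9147 lower in place of 8137 and 6998, and 8 of the 10 genes higher in place of 9. The 26 list genes named by mean level, which do not include Zfyve9, changed their call in 11 of 390 fits, all under the 1.5-fold test.

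Correlations of deviations between same-numbered libraries were 0.00664, 0.0108 and 0.0316, so no shared effect of replicate number was seen. This cannot tell whether same-numbered libraries were prepared together, which the labels do not say. With a replicate block 8183 genes were higher and 6927 lower, and 9 of the 10 genes were higher and 1 lower. On scaled reads, treated here as not corrected for length, the shift in share was 49.4 percentage points for Tgfb2 (58.7 on the TPM scale), 40.03 for Inhba (41.8), 26.1 for Tgfbr2 (11.9) and 18.8 for Ltbp1 (14.5). Depth limits the size of the Tgfb2, Tgfb3 and Inhba changes, whose WT levels rest on an estimated 7.49 to 20 fragments per library.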

Other observations

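Among 12322 genes with a mean of at least 1 on the TPM scale, the pattern over the 6 libraries nearest to that of Inhba was that of Maged2, followed by Hoxb9 and Rhob. Likeness was measured as the Euclidean distance of log2(TPM scale + 1) values centred on each gene's mean, at 0.0367, 0.0564 and 0.0586. The added 1 shrinks the change of a gene as low as Inhba, so genes near it by this measure can have far smaller ratios. Maged2 went from 12.03 to 34.4 on the TPM scale, while Inhba rose 45.1-fold. Hoxb9, a homeobox gene of the posterior axis, went from 0.215 to 2.29, and Rhob, encoding a small GTPase, from 7.86 to 22.7. For Tgfb1 the nearest were Dnajc15, Map7d3 and Slc39a2, at 0.115, 0.124 and 0.136.

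The low-level beta subunit genes Inhbc and Inhbe, picked out after their values were seen, fell as Inhbb did. Inhbc and Inhbe lie close together on the minus strand of chromosome 10, at 127356322 to 127370431 and 127348857 to 127354411. Whether their falls are separate events was not tested. Inhbc went from 0.605 ± 0.148 to 0.1601 ± 0.0169 on the TPM scale and Inhbe from 0.445 ± 0.0658 to 0.173 ± 0.0104 (SD, n = 3), with log2 fold changes of -1.78 and -1.29 (limma adjusted p 8.77e-05 and 3.44e-05). Of the 4 beta subunit genes, Inhba alone was higher in the knockout. The matrix proteoglycan genes Dcn and Bgn, whose products bind TGF-beta, rose by 3.04 and 2.77 on the log2 scale. Dcn went from 0.0821 ± 0.0451 to 0.671 ± 0.0825 and Bgn from 0.563 ± 0.121 to 3.72 ± 0.191 (TPM scale, SD, n = 3). WT libraries held only 3.825 to 12.05 scaled reads of Dcn, which limits the size of its change.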
